A study of Rattus norvegicus with 8 samples.

Results

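Class II antigen presentation was followed in whole blood through 5 rat genes, RT1-Ba, RT1-Bb, RT1-Da, RT1-DMb and Cd74. A probe set is a group of short probes near the 3' end of a transcript, and the members were all probe sets whose platform annotation gives exactly 1 gene symbol equal to one of these names. These 5 genes, of 14217 named by a probe set, had 9 such probe sets among the 31042 probe sets for transcripts on the array. RT1-Ba had 4 of them, RT1-Bb had 2, and RT1-Da, RT1-DMb and Cd74 had 1 each. Blood came from 8 male Wistar rats, 4 on a high-fat diet and 4 on a normal diet, each array holding the blood RNA of a single labelled biological replicate. The rats were bought at 7 weeks of age, kept for 1 week on normal chow, then fed their diet for 8 weeks, and all were fasted overnight before blood was drawn. The labels name no agent, transgene or deletion for these groups, and a mulberry leaf group named in the labels is not analysed here. The series title concerns mulberry leaf ingestion and blood gene expression, and the arrays used here compare the high-fat with the normal diet.

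Class II molecules display peptides from engulfed material to CD4+ T cells. An alpha and a beta chain pair in the endoplasmic reticulum, where the invariant chain encoded by Cd74 blocks the peptide groove and directs the complex to acidic compartments. There the invariant chain is cut away and the DM dimer exchanges its last fragment for antigen peptides. In blood, B cells, monocytes and dendritic cells are known to carry these molecules, and the master regulator Ciita acts on their promoters through factors bound to conserved X and Y boxes. RT1-B and RT1-D are the rat counterparts of human HLA-DQ and HLA-DR.

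In the GRCr8 assembly RT1-Da lies on chromosome 20 at 4515393 to 4520387, RT1-Ba at 4577057 to 4581650, RT1-Bb at 4598475 to 4604118 and RT1-DMb at 4695009 to 4702560. Cd74 lies on chromosome 18 at 56527071 to 56536406. All 5 genes matched the RefSeq gene table by gene number with an unchanged symbol. RefSeq promoter windows of GRCr8 are shown because RT1-Da, RT1-Ba, RT1-Bb and Cd74 moved together over the animals, although Cd74 lies on another chromosome than the others. Whether these sequences have a part in that covariation was not tested. Of the members, RT1-Da, RT1-Ba, RT1-Bb and Cd74 were found in the promoter table, and RT1-DMb was not. Windows of RT1-Db1 and RT1-DMa, the partner chains of the same gene complex, are given for comparison. Capitals mark a Y core, ATTGG, and an X core, GNNACNG, and each stretch reads 5′ to 3′ in the direction of the gene.
RT1-Da, chr20:4515319-4515384, plus strand: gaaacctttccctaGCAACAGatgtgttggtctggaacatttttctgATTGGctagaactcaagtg
RT1-Ba, chr20:4576967-4577032, plus strand: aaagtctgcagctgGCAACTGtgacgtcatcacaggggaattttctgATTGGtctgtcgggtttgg
RT1-Bb, chr20:4604161-4604225, minus strand: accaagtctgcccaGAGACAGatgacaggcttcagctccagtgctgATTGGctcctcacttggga
RT1-Db1, chr20:4560224-4560288, minus strand: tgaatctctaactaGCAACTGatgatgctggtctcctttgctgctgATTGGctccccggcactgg
RT1-DMa, chr20:4712381-4712446, minus strand: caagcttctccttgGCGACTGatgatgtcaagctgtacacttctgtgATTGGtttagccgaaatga
Cd74, chr18:56526963-56527035, plus strand: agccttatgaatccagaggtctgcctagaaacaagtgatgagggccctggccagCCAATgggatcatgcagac

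In RT1-Da, RT1-Ba and RT1-DMa the first base of the X core lies 33 bases before the first base of the Y core, and in RT1-Bb and RT1-Db1 it lies 32 bases before it. The searched stretch of Cd74 held a Y core on the other strand, read as CCAAT, and no match to the X core letters. The bases gaaacaa before that CCAAT differ from GNNACNG in the last letter only. The missing match therefore does not show that Cd74 lacks an X box. Both motifs were searched on both strands in the bases before the first annotated start of each gene, 115 bases for Cd74 and 228 to 250 for the others. For Cd74, RT1-Da and RT1-Db1 this first start lies 135, 22 and 20 bases before the start that the promoter table uses. A second X core on the other strand of RT1-Ba overlaps the capitals shown. Over the 250 bases before the start of all 33469 promoters in the table, a Y core was found in 34% and an X core in 82.1%. The combination of an X core followed on the same strand by a Y core at 30 to 40 bases was found in 1.71%. These letters and the spacing were chosen after the windows had been read, so the matches describe the sequences only.

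**Figure D1:**
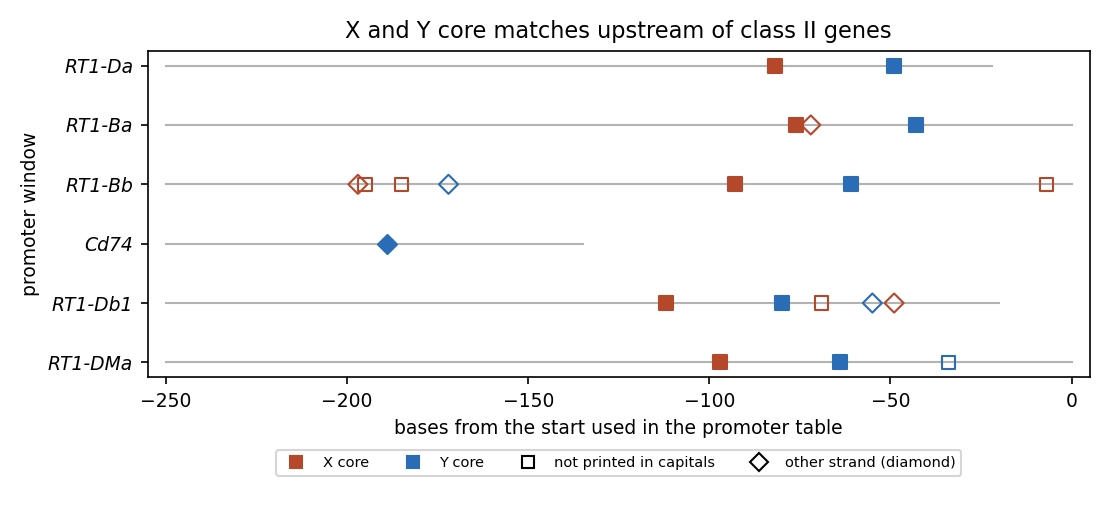
Matches of the X core (red) and the Y core (blue) upstream of 6 class II genes, by distance in bases from the start used in the promoter table. Grey lines span the searched bases, filled marks are those in capitals in the text, open marks are further matches, and diamonds are matches on the other strand. The filled pairs of RT1-Da, RT1-Ba, RT1-Bb, RT1-Db1 and RT1-DMa have nearly the same spacing, 32 or 33 bases.

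The deposited values read as log2 intensities, from 5.19 to 15.25, and the arrays have nearly equal medians, 6.6018 to 6.6019. Between arrays they differ far less than RNA amounts would, with a median SD of 6.07e-06 per probe set over the 8 arrays and a 99th percentile of 4.13e-04. No fold changes are therefore given. A difference is stated in deposited units, or divided by the SD pooled over both diets, in within-group SDs. Whole blood holds many cell types, and fewer cells of a type cannot be told apart from less RNA per cell. Markers of the labelled tissue were present, with levels of 15.1 for Hbb, a globin chain, and 13.7 for Alas2, the heme synthesis enzyme of red cell precursors, against a median of 6.6004 over all probe sets.

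The members that carried the result were bright and varied among the animals, and none passed the test between the diets. Cd74 had the highest deposited level, followed by RT1-Da, RT1-Ba, RT1-Bb and RT1-DMb, and this order held in all 8 arrays because the gaps between genes are far wider than the spread over animals. It is an order of deposited values only, since probe sets bind with different strength. Low values in high-fat replicate 3 and normal replicate 3, and high values in normal replicate 2, recurred from gene to gene.

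Cd74, the invariant chain, had levels of 10.8387, 10.8392, 10.8366 and 10.8386 in high-fat replicates 1 to 4, against 10.8383, 10.8394, 10.8373 and 10.8393 in normal replicates 1 to 4. The lowest animal of each diet was replicate 3, the highest was replicate 2, and the diets overlapped. The difference was -3.52e-04 ± 7.17e-04 (SE, n = 4 and 4), which is -0.327 within-group SDs (adjusted p of 1 by limma).

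RT1-Da, the alpha chain of the D molecule, had levels of 10.3757, 10.3763, 10.3722 and 10.3754 in high-fat replicates 1 to 4, against 10.3753, 10.3775, 10.3739 and 10.3759 in normal replicates 1 to 4. Replicate 3 was again the lowest and replicate 2 the highest in each diet, and the diets overlapped. Its SD over the 8 arrays, 0.00161, was the largest of the 9 probe sets. The difference was -7.36e-04 ± 0.00112 (SE, n = 4 and 4), or -0.438 within-group SDs (adjusted p of 1 by limma).

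RT1-Ba, the alpha chain of the B molecule, had levels in its brightest probe set, 1377334_at, of 9.3343, 9.3351, 9.3330 and 9.3349 in high-fat replicates 1 to 4, against 9.3346, 9.3359, 9.3339 and 9.3350 in normal replicates 1 to 4. The same animals were lowest and highest in each diet. RT1-Bb, the beta chain that pairs with it, had levels in probe set 1371065_at of 8.4485, 8.4490, 8.4470 and 8.4483 in the high-fat replicates, against 8.4484, 8.4493, 8.4477 and 8.4487 in the normal replicates. Their differences were -0.601 and -0.426 within-group SDs, each with an adjusted p of 1 by limma, and the diets overlapped in both.

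RT1-DMb, the beta chain of the peptide exchange factor DM, had levels of 8.3108, 8.3106, 8.3081 and 8.3125 in high-fat replicates 1 to 4, against 8.3102, 8.3113, 8.3091 and 8.3105 in normal replicates 1 to 4. Replicate 3 was the lowest in each diet here too, but the highest animal was high-fat replicate 4 and not normal replicate 2. The difference was 2.21e-04 ± 9.57e-04 (SE, n = 4 and 4), or 0.153 within-group SDs (adjusted p of 1 by limma).

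**Figure D2:**
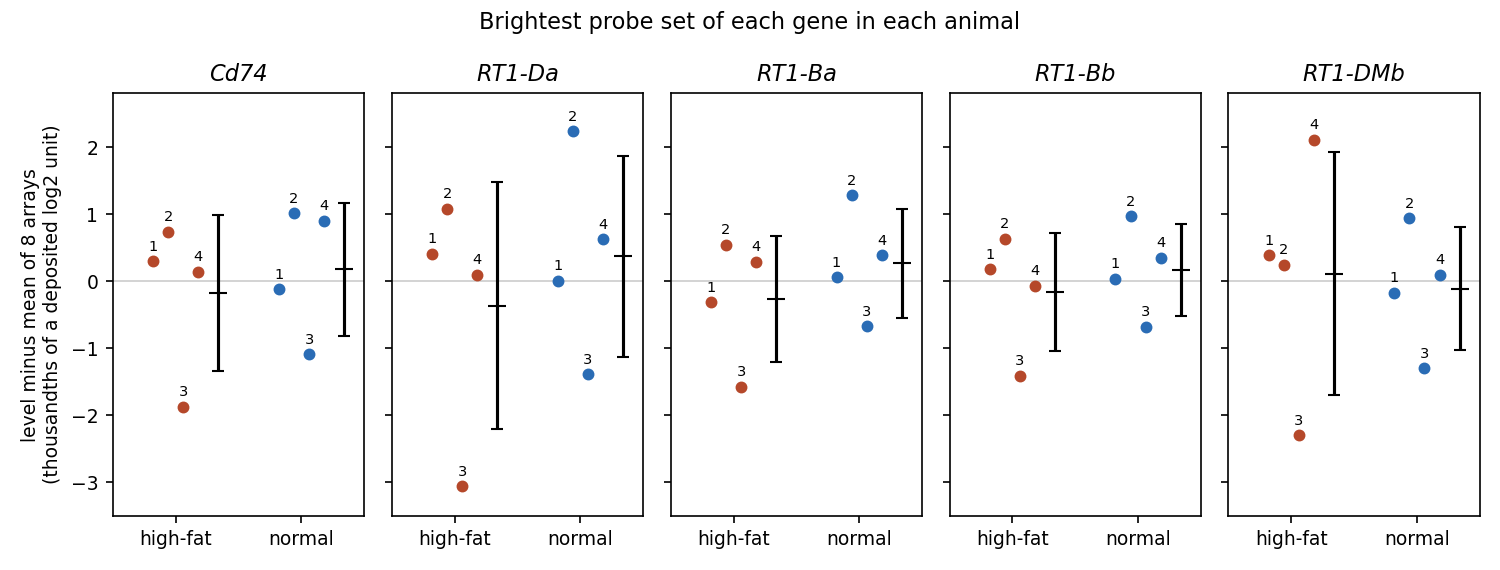
Level of the brightest probe set of each gene in each animal, as the distance from the mean of the 8 arrays in thousandths of a deposited log2 unit. Numbers are the replicate labels, and bars are the mean ± SD of 4 animals. High-fat replicate 3 is the lowest animal in all 5 panels, and normal replicate 2 is the highest in all but RT1-DMb, where high-fat replicate 4 is the highest.

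Over the diets, 0 of the 9 probe sets passed an adjusted p of 0.05 by limma, beside 0% of all 31042 probe sets. At an unadjusted p under 0.05 there were 0 of the 9, beside 2.25% of all, and the smallest unadjusted limma p of a member was 0.397, for RT1-Ba. The exact permutation test over 70 assignments of animals, two-sided, gave p from 0.457 to 1 for the 9 probe sets, and the smallest value that it allows is 0.0286. Over the whole table an unadjusted limma p under 0.05 was found in 699 probe sets, with the high-fat mean above the normal mean in 295 and below it in 404. With centring on array medians the split was 41 above and 562 below. In 0 of the 9 did the diets not overlap, beside 1.44% of all. By brightest probe set, 1 of the 5 genes had a higher high-fat mean, beside 46.6% of all probe sets, and 4 a lower one, beside 53.4%. In within-group SDs the median was -0.426 over the 5 genes and -0.0479 over all probe sets. For RT1-Ba the difference stayed below 0 whichever animal was left out, from -8.41e-04 to -9.23e-05, and for the other 4 genes its sign changed with at least 1 omission. Without high-fat replicate 3, 4 of the 5 genes were higher and the median was 0.138 within-group SDs. Without normal replicate 3 or high-fat replicate 4, 0 of the 5 were higher, and the medians were -0.826 and -0.428. Without normal replicate 2 the median was -0.0718, and without high-fat replicate 2 it was -0.724.

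The spread over animals was wide for these genes. The SDs of the 5 brightest probe sets lay between percentiles 99.4 and 99.7 of all probe sets. Spread depends on level in this table, so the members were also set against probe sets of like level. The median SD mostly rose with level, from 4.01e-06 at 5.67 to 4.88e-05 at 9.12. It was 4.77e-05 at 10.8 and fell to 7.78e-06 at 12.8, above the levels of the members. Cd74 stood at percentile 96.1 of 155 probe sets, RT1-Da at 96.1 of 310, RT1-Ba at 96.5 of 311, RT1-Bb at 96.6 of 621 and RT1-DMb at 98.8 of 1552.

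Other probe sets of the same genes did not all share this spread. A second one of RT1-Ba, 1370822_at, had a level of 8.07 and an SD of 1.67e-04, with high-fat replicate 3 the lowest and normal replicate 2 the highest animal. The further ones of RT1-Ba, 1392334_at and 1381593_x_at, had levels of 7.92 and 7.52 and SDs of 6.23e-06 and 1.18e-05. They share a sequence record in the annotation, and the x in a name marks probes that may also bind other transcripts. The second probe set of RT1-Bb, 1371033_at, had a level of 5.97, at percentile 11.5 of all levels, and an SD of 1.65e-06. These 3 varied about as much as, or less than, most probe sets of like level, at percentiles 24.6, 51.5 and 16.8.

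**Figure D3:**
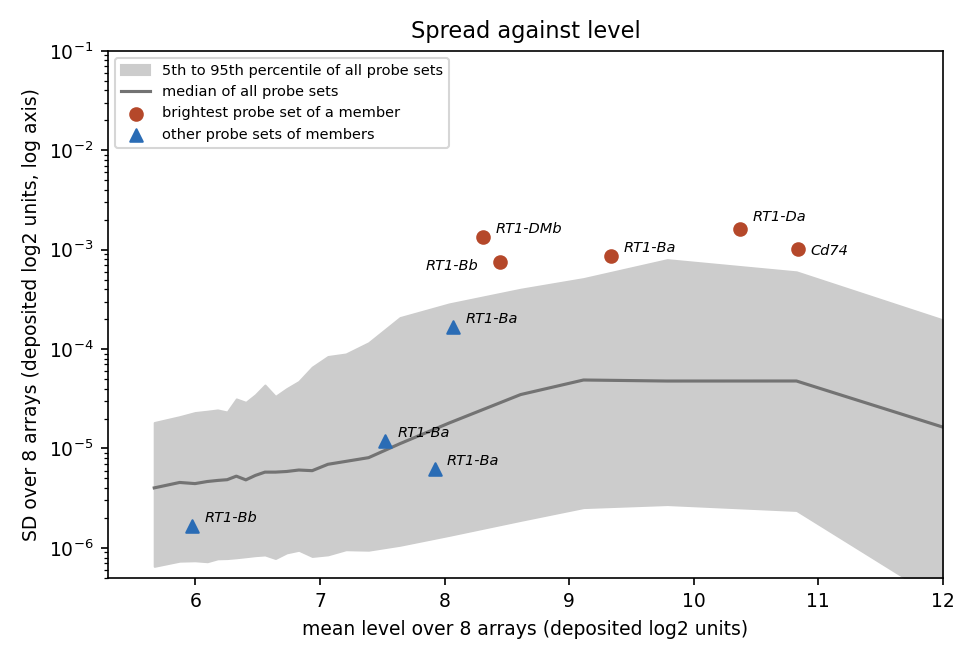
SD over the 8 arrays (log axis) against mean level, both in deposited log2 units. The band spans the central range of all probe sets and the line is their median. The brightest probe set of each member lies above the band, while 1370822_at and the 3 probe sets with SDs of 1.18e-05 or less lie inside it.

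Cd74 and the B and D chains moved together from animal to animal. Over the 10 pairs of brightest probe sets the median Pearson r over the 8 arrays was 0.940, and it was 0.589 when quantile normalization was added. For the 6 pairs among Cd74, RT1-Da, RT1-Ba and RT1-Bb, r ranged from 0.926 to 0.995. The largest adjusted p among them was 0.00232 by the exact permutation test over 40320 pairings of 8 arrays, adjusted over 29 pairs of probe sets of different genes. RT1-Da and RT1-Bb were the closest pair, with an r of 0.995 and a Spearman rho of 0.976 (exact permutation adjusted p of 7.19e-04 and 0.00384). RT1-Da and Cd74, on different chromosomes, had an r of 0.966 and a rho of 0.976 (exact permutation adjusted p of 7.19e-04 and 0.00384). RT1-Ba and RT1-Bb, which encode the chains of a single molecule, had an r of 0.953 and a rho of 0.905 (exact permutation adjusted p of 0.00226 and 0.0147).

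These 6 pairs kept an r of 0.721 to 0.988 when the 2 animals farthest from the median were left out, which were high-fat replicate 3 together with normal replicate 2 or 3. On deviations from the diet means the 10 pairs ranged from 0.776 to 0.994. The 4 pairs with RT1-DMb had an r of 0.730 to 0.784, and none passed (exact permutation adjusted p from 0.0648 to 0.0928). Without the 2 farthest animals those r were -0.0708 with Cd74, 0.361 with RT1-Bb, 0.496 with RT1-Da and 0.571 with RT1-Ba.

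Over all 29 pairs of different genes, 9 passed an adjusted p of 0.05 by Pearson r and 9 by Spearman rho. The probe set 1370822_at of RT1-Ba gave 3 of them, with Cd74 (r of 0.891), RT1-Da (0.935) and RT1-Bb (0.932). None of the 15 pairs with 1392334_at, 1381593_x_at or 1371033_at passed, and their r ranged from -0.486 to -0.0786. Within RT1-Ba the probe sets 1377334_at and 1370822_at had an r of 0.893, and 1392334_at and 1381593_x_at an r of 0.773, while r across these groups ran from -0.477 to -0.180.

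**Figure D4:**
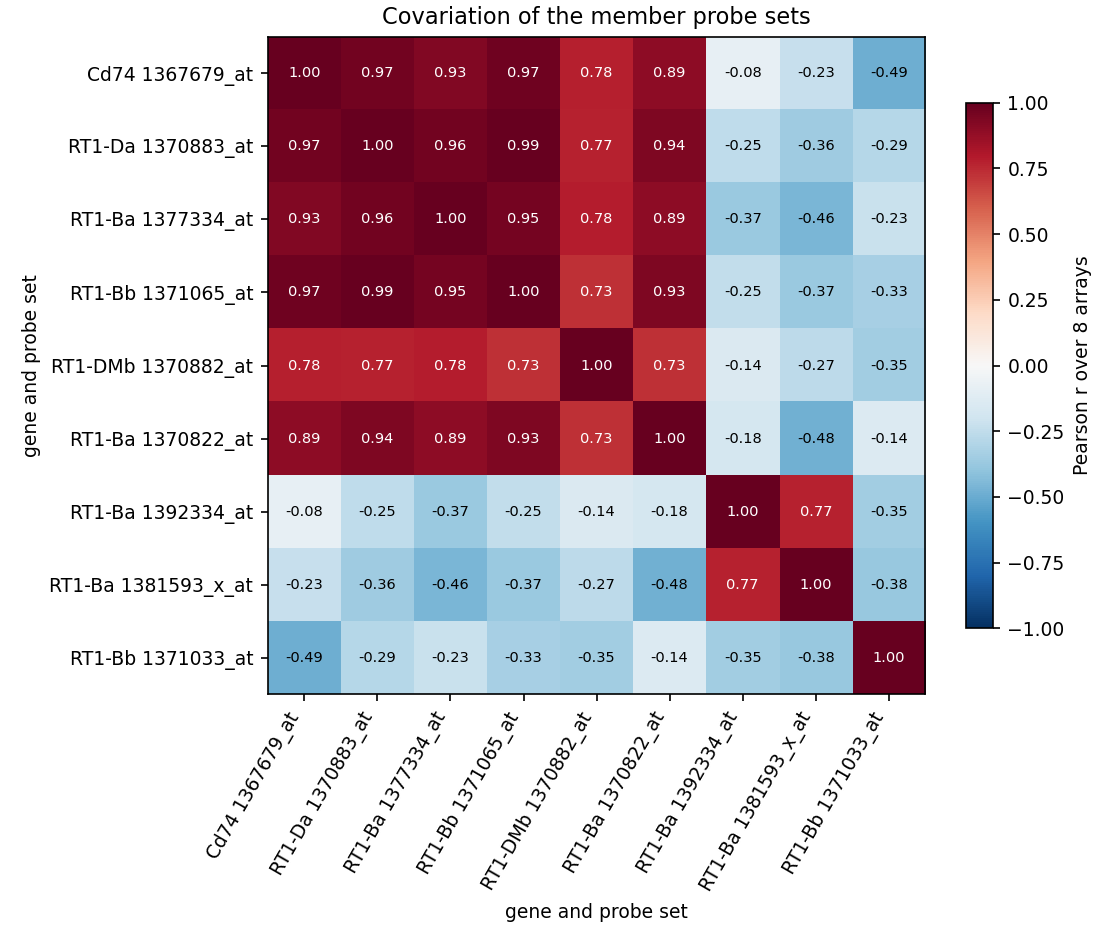
Pearson r over the 8 arrays for each pair of the 9 member probe sets. The upper left block of 6 probe sets is positive throughout, from 0.730 to 0.995, and the last 3 rows are negative against that block.

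Many other transcripts followed the same animals, so these r need a background. Set against the mean scaled level of the other 4 genes, where each gene is centred and divided by its SD over the arrays, RT1-Da had an r of 0.979. Of 7029 brighter and more variable named probe sets, 0.0285% had a higher r with the same mean. The values were 0.963 for RT1-Bb (exceeded by 0.114%), 0.959 for Cd74 (0.171%), 0.955 for RT1-Ba (0.156%) and 0.776 for RT1-DMb (14.5%). With the mean of all 5 genes the median r of these 7029 probe sets was 0.429, and 2.23% of them had an r over 0.9. The mean scaled level of 9148 brighter and more variable probe sets, named or not, was -0.222 in high-fat replicate 3 and -0.442 in normal replicate 3, and between -0.145 and 0.244 in the other 6 animals. When this array-wide level was subtracted, the median r of the 10 pairs was 0.910. That level varied far less than the scaled genes. Its subtraction could therefore lower r only a little, and it did not remove all that the genes share with it.

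The genes most like the members came from outside the lists of class II genes. By r with the mean of the 5 genes over the 8 arrays, the nearest were Mrpl52 (0.979, a mitochondrial ribosomal protein), Adprm (0.975), Snx2 (0.972, a sorting nexin), Cerk (0.970, ceramide kinase) and Surf6 (0.966). They were followed by Nup88 (0.966, a nuclear pore protein), Cdc123 (0.964), Arhgap25 (0.961), Eif3d (0.959, a translation initiation factor) and Tada1 (0.959). The lowest r belonged to Septin8 (-0.975), Sox7 (-0.971) and Vwa3a (-0.959). SDs of these 13 genes ran from 6.70e-06 for Eif3d to 3.33e-04 for Snx2, all below those of the brightest member probe sets.

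Of 27 further genes of the class II pathway, 22 were measured with a named probe set. The high-fat mean was above the normal mean in 10 of them and below it in 12, with a median difference of -0.0145 within-group SDs, and 0 of the 22 passed limma after adjustment. At an unadjusted p under 0.05 there was 1 of the 22, beside 2.25% of all probe sets. It was the lysosomal protease Ctsb, with a difference of 1.598 within-group SDs (limma p of 0.0489, adjusted p of 1). RT1-Db1, the beta chain that pairs with RT1-Da, had a difference of -0.591 within-group SDs in its brightest probe set, and RT1-DMa, the alpha chain of DM, one of -0.183. Of the regulators, Ciita stood at -0.728, and the subunits of the X box binding factor at 0.335 for Rfx5, -0.506 for Rfxap and -0.777 for Rfxank. Of the processing enzymes, Ctss, a protease that trims the invariant chain, stood at 0.281, Ifi30, a thiol reductase of the lysosome, at -0.0221, and the protease Lgmn at -0.00686.

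RT1-Da and RT1-DMb were each set against these 9 genes by brightest probe set, a choice made after values were seen, and 7 of the 18 relations passed an exact permutation test after adjustment by Pearson r and 4 by Spearman rho. Such relations were common in this table. At an exact permutation p of 0.0172 or less, the largest that passed by Pearson r, RT1-Da had 4 of its 9 relations, beside 11.8% of the 7029 named probe sets, and RT1-DMb had 3 of 9, beside 13.5%. RT1-Da was closest to its partner RT1-Db1, with an r of 0.945 and a rho of 0.952 (exact permutation adjusted p of 0.00312 and 0.0201). Without the 2 farthest animals that r was 0.864. The dimmer probe set of RT1-Db1 did not share this relation, with an r of -0.662 with RT1-Da and -0.668 with RT1-DMb. Both are given without a test. Its level was 7.43, and its SD lay at percentile 6.17 of all probe sets. RT1-DMb was closest to its partner RT1-DMa by r, at 0.899 (exact permutation adjusted p of 0.0253). That relation did not pass by rho, 0.690 (exact permutation adjusted p of 0.150), and its r was 0.400 without the 2 farthest animals.

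RT1-DMb also followed Ctss, with an r of 0.897 and a rho of 0.905 (exact permutation adjusted p of 0.00926 and 0.0205), and an r of 0.907 without the 2 farthest animals. Ifi30 followed both chains, with an r of 0.858 for RT1-Da and 0.862 for RT1-DMb (exact permutation adjusted p of 0.00926 in both). By rho it passed for RT1-DMb (0.905) and not for RT1-Da (0.738). Rfx5 and Rfxap followed RT1-Da with an r of 0.806 and 0.857 (exact permutation adjusted p of 0.0441 and 0.0253), where Rfx5 passed by rho (0.929) and Rfxap did not (0.762). Rfxank, the other subunit of the X box binding factor, had a negative r with both chains. It was -0.333 for RT1-Da and -0.726 for RT1-DMb, and neither passed (exact permutation adjusted p of 0.399 and 0.0940). Ciita did not pass for either chain by its brightest probe set, with an r of 0.623 for RT1-Da and 0.354 for RT1-DMb. Its other probe set, 1379381_at, had an r of 0.904 with RT1-Da, given without a test. Whether any gene followed RT1-Da and RT1-DMb unequally was not tested.

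Markers of the cells that carry class II molecules moved with part of this pattern. Of 16 B cell markers 11 were measured, and their mean scaled level was 0.273, 0.635, -1.18 and -0.484 in high-fat replicates 1 to 4, against -0.420, 0.866, -0.441 and 0.750 in normal replicates 1 to 4. High-fat replicate 3 was the lowest and normal replicate 2 the highest animal, as for Cd74 and the B and D chains, and r with the mean of the 5 members was 0.850. The array-wide level of the 9148 probe sets had an r of 0.817 with the same mean. Its highest animal was also normal replicate 2, at 0.244, while its lowest was normal replicate 3, at -0.442. Without both animals numbered 3 the B cell r was 0.687. The high-fat mean was above the normal mean in 1 of the 11 B cell markers and below it in 10. Over all probe sets these shares were 46.6% and 53.4%, and none of the B cell markers passed limma. Of the defining markers, Ms4a1 (CD20) had a mean level of 9.10, Cd79b, a chain of the B cell receptor complex, 8.20 and Cd22 8.08, and none lay below the median of all probe sets, 6.6004.

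Of 12 monocyte markers 11 were measured, with a mean scaled level of -0.458 to 1.64 in the high-fat group and -0.358 to -0.0848 in the normal group. The high value was high-fat replicate 4, the animal in which RT1-DMb and RT1-DMa were highest. The monocyte receptor Csf1r lay 10.0 thousandths of a unit above its mean in that animal and at most 0.681 thousandths above it in the others. Of the 11 markers, Cd163 and Ms4a7 lay below their means in high-fat replicate 4, with scaled levels of -0.274 and -0.942. The rest lay above theirs. The r of the monocyte list with the members was 0.119, and 9 of its 11 genes had the higher mean in the high-fat group. By brightest probe set, r with the members ran from -0.547 for Cd163 to 0.610 for Lyz2. With RT1-DMb alone r was 0.862 for Lyz2, 0.838 for Fcgr3a, 0.836 for Csf1r, 0.816 for Cd68 and 0.683 for Cd14. It was 0.469 for Ccr2, 0.451 for Itgam, 0.279 for Vcan, 0.155 for Cx3cr1, -0.414 for Cd163 and -0.559 for Ms4a7. These r of single markers were not tested. In high-fat replicate 4 the scaled levels were 2.26 for Csf1r, 2.27 for Cd68 and 2.43 for Cd14, and at most 0.171 in the other animals. No r was computed without that animal. Such r were not particular to monocyte markers. By brightest probe set the NK cell markers had r with RT1-DMb from 0.444 for Il2rb to 0.708 for Gzmb. For 8 of 12 dendritic cell markers the list ran from -0.159 to 0.697 in the high-fat group and from -0.523 to 0.539 in the normal group, with an r of 0.436, and 6 of the 8 had the higher mean in the high-fat group. Single dendritic cell markers went both ways, with r with the members from -0.690 for Batf3 to 0.862 for Tcf4 by brightest probe set.

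T cell markers, all 12 measured, ran from -0.441 to 0.325 in the high-fat group and from -1.37 to 0.916 in the normal group, with an r of 0.618 and of 0.383 without both animals numbered 3. The high-fat mean was the lower one in all 12, and their smallest unadjusted limma p was 0.160. Genes of class I presentation, 12 of 14 measured, ran from -0.639 to 0.595 in the high-fat group and from -1.22 to 0.954 in the normal group, with an r of 0.726 and of 0.362 without both animals numbered 3, and 5 of the 12 had the higher mean in the high-fat group. NK cell markers, 7 of 8 measured, ran from -0.336 to 2.09 in the high-fat group, highest in replicate 4, and from -0.596 to -0.0467 in the normal group, with an r of 0.240, and all 7 had the higher mean in the high-fat group. The smallest unadjusted limma p of these 7 was 0.113. Of red cell precursor genes 6 of 8 were measured, and 5 had the higher mean in the high-fat group. Of the 6, 3 had an unadjusted limma p under 0.05, beside 2.25% of all probe sets, and 0 passed after adjustment. The sixth, Hbb, varied only in the last deposited digit, with equal means, and was left out of the scaled list. The other 5 ran from -0.167 to 1.20 in the high-fat group and from -0.774 to -0.320 in the normal group, with an r of -0.541. Neutrophil markers, 7 of 10 measured, ran from -0.981 to 0.715 in the high-fat group and from -1.03 to 0.8004 in the normal group, with an r of 0.115, and 5 of the 7 had the higher mean in the high-fat group. Platelet markers, 5 of 6 measured, ran from -1.66 to 0.622 in the high-fat group and from -0.305 to 0.507 in the normal group, with an r of -0.237, and 1 of the 5 had the higher mean in the high-fat group. None of these lists held a gene past an adjusted p of 0.05 by limma, beside 0% of all probe sets. Beside the counts by direction, 46.6% of all probe sets had the higher mean in the high-fat group and 53.4% the lower one. These list values share the arrays and the array-wide level given above and are descriptions. The part of B cells, monocytes or array-wide level in the covariation of the class II genes was not tested.

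**Figure D5:**
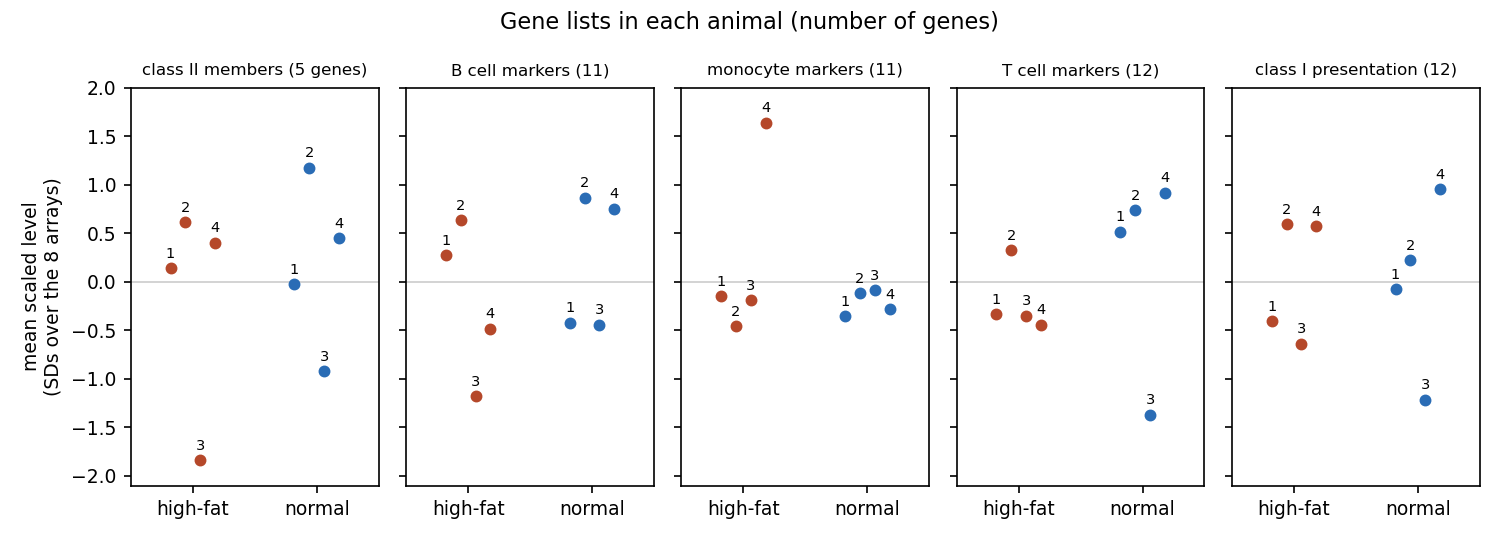
Mean scaled level in each animal for the 5 class II genes and for 4 lists of cell markers or class I genes, with the number of measured genes in brackets, in SDs over the 8 arrays. High-fat replicate 3 is lowest for the class II genes and the B cell markers, normal replicate 3 is lowest for the T cell markers and class I presentation, and high-fat replicate 4 stands alone for the monocyte markers.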

How the data were processed

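Per the labels' protocols, blood was mixed with a phenol reagent, and the extracted RNA was purified on columns, and 200 ng of it was amplified for Affymetrix arrays that read the 3' ends of transcripts. The values used are the log2 levels of the table the authors deposited. Their background correction, normalization and probe summary were not given in the sources used here. Rows of that table numbered 31099, less 57 control probe sets that were left out. Gene names came from the platform annotation, which gave 1 symbol to 20826 probe sets and several to 436, and left 9780 unnamed here.

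Sample titles gave the diet and the replicate number, and no 2 arrays were identical. The sources do not name separate cages or batches. The number of arrays limits the precision. The diets were compared by a two-sided limma 3.58.1 fit without covariates (R 4.3.3, lmFit and eBayes), with p adjusted by Benjamini-Hochberg over 31042 probe sets, threshold 0.05. On simulated data for this comparison with 31042 probe sets, 59 of 100 shifts of 5 within-group SDs and 97 of 100 shifts of 10 were recovered, with 7 calls among unshifted probe sets. Means that differed by 1e-12 or less were counted as equal. Single members were compared by an exact permutation test, and pairs of probe sets by exact permutation of Pearson r and Spearman rho, in 2 families of 29 and 18.

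All member probe sets were named, with the brightest one standing for a gene where 1 value was needed. Of the pathway, the chains of the complex, Ciita, the Rfx genes, Ctss, Ifi30 and Lgmn were named by rule, and Ctsb after its value was seen. The 10 genes with the highest and the 3 with the lowest r with the members were named among probe sets above the median level and median SD. The members and lists were chosen with earlier results of these data known. Alternatives were quantile normalization, centring on array medians, removal of the dimmer probe sets, a trended robust prior, weighted arrays, a block on replicate number, omission of each animal in turn, and for covariation deviations from diet means, the mean over a gene's probe sets and 3 settings added after seeing the data.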

Additional observations from a re-analysis of the deposited data

Results flagged for a closer look

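Of 42 groups of 4 animals examined over 21 probe sets of the members and the named pathway genes, 1 held an animal far from the others, and chance gives about 1 in 20. In the dimmer probe set of the protease Lgmn, 1380609_at, normal replicate 3 lay above the other normal animals by a gap of 0.874 of the range of that group. The brightest probe set of Lgmn had that animal as its lowest.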

How the results depend on the processing

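No member probe set passed an adjusted p of 0.05 by limma under any alternative run, although over all probe sets the calls numbered 32 with quantile normalization on top, against 0 as reported. At an unadjusted p under 0.05 the whole table gave 699 calls, 370 with quantile normalization and 1111 with the replicate block. Of 125 alternative values of single differences, 26 equal the reported one by construction (removal of dimmer probe sets, the trended robust prior and the replicate block). Of the other 99, 80 kept their direction, 16 reversed and 3 came to 0, all with quantile normalization (RT1-Ba 1370822_at, RT1-Bb 1371033_at and RT1-DMb), which left 0 of 5 genes higher in the high-fat group. Centring on array medians moved each of the 9 differences by -6.60e-05, since it subtracts the difference between the diets in array medians, and so put RT1-Ba 1392334_at at -6.58e-05 and 1381593_x_at at -6.43e-05, and quantile normalization put 1392334_at at -5.17e-05. The cause of the quantile value was not tested. Leaving out single animals gave differences from -7.76e-04 to 2.14e-04 for Cd74, -0.00132 to 1.61e-04 for RT1-Da, -8.41e-04 to -9.23e-05 for RT1-Ba 1377334_at, -1.58e-04 to 1.12e-05 for 1370822_at, -2.61e-06 to 8.32e-06 for 1381593_x_at, -2.49e-06 to 3.27e-06 for 1392334_at, -6.18e-04 to 7.96e-05 for RT1-Bb 1371065_at, -1.70e-06 to 1.27e-07 for 1371033_at and -4.46e-04 to 0.00102 for RT1-DMb. The genes higher in the high-fat group then numbered 0 to 4 of 5. The replicate number as a block gave 1 member, RT1-Ba 1377334_at, at an unadjusted p under 0.05, with an adjusted p of 1 by limma, and a median member of -1.17 within-group SDs. The labels do not say that numbers pair animals. Same-numbered animals had correlations of deviations of -0.125, 0.205, 0.368 and 0.144 for replicates 1 to 4, and 5 of 8 animals correlated best with their own number. The median r of the 10 pairs, 0.940, was 0.589 with quantile normalization on top, 0.771 without both animals numbered 3 (an alternative added after seeing the data), and 0.865 to 0.969 without single animals, with causes not tested. It was 0.938 with centring, 0.943 on deviations from diet means, 0.952 with the mean over a gene's probe sets, 0.905 on ranks and 0.910 with the array-wide level subtracted. The compressed scale of the deposited differences limits every comparison.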
